A study of Mus musculus with 46 samples.

Results

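In mouse embryonic stem cells, 9 of the 25 promoter fragments of the Tfcp2l1 locus that were tested behind a candidate cis-regulatory element (cCRE) drove clear reporter expression with no partner. The 9 lie at Nifk, Clasp1, Ralb, Tmem185b, Epb41l5, Ptpn4, Tmem177 and Cfap221, with a pair of fragments at Clasp1. They were chosen by that activity itself, so their levels alone are a description and carry no test. A fragment was kept when the log2 of its geometric mean activity over 3 biological replicates, averaged over the strands measured, was -1.5 or more. Another 15 fragments fell below that line, and P030 had no value alone. The rule also names P011, P012, P017 and P031 as left out, and all 4 lay below the line. The 9 fragments were combined with 174 cCREs in 2094 of the 5599 constructs of the locus that carried a cCRE followed by a promoter. Across all loci of the same assay there were 66 such promoters and 10678 such constructs.

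The series is a set of massively parallel reporter assays, in which barcoded plasmids carry 1 or 2 genomic fragments upstream of a reporter and the barcodes are counted in RNA and in the plasmid input. All values below come from 1 condition. Cells of the mouse embryonic stem cell line E14TG2a, kept in 2i+LIF medium, received the pooled Tfcp2l1 Upstream libraries by nucleofection, and RNA was taken 24 h later. Of the 46 samples of the series, the 3 cDNA samples of this mix were used, each an independent biological replicate per the labels, with the 2 plasmid samples of the mix as the input. There was no other genotype, treatment or time point, and the 3 replicates received the same plasmid pool. A plasmid outside the chromosome lacks the distance and chromatin of the native locus, so the assay reads the fragments and not the genes. Activity is the deposited cDNA to plasmid ratio of a construct. A construct with no fragment in either position gave 0.0460, 0.0658 and 0.0654 in replicates 1, 2 and 3.

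A promoter is the stretch around a transcription start at which RNA polymerase II and its general factors assemble, and enhancers raise its output. Promoters of broadly expressed genes are often rich in CpG dinucleotides and in GC and CCAAT boxes, bound by factors of the Sp and NF-Y families. In embryonic stem cells, Tfcp2l1 encodes a transcription factor of the naive pluripotency network, and the genes around it have widely different roles. Such a design asks whether a promoter that is already active answers to cCREs as a quiet one does, and whether the answer depends on which cCRE it meets.

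Each fragment was 450 bp long (mm10, chromosome 1), and genes are RefSeq gene spans of the same assembly. P007 (chr1:118321463-118321913) holds the start of Nifk, which encodes a nucleolar protein of ribosomal RNA maturation. P009 (chr1:118388682-118389132) and P010 (chr1:118389097-118389547) overlap each other by 35 bp at the beginning of Clasp1, the gene of a protein that stabilises microtubule ends. P018 (chr1:119504719-119505169) holds the start of Ralb, a small GTPase of the Ras family. P019 (chr1:119525784-119526234) holds the start of Tmem185b, a predicted membrane protein. P021 (chr1:119648917-119649367) spans an edge of Epb41l5, which encodes a cytoskeletal adaptor needed for epithelial to mesenchymal transition in the mouse embryo. P022 (chr1:119837481-119837931) spans an edge of Ptpn4, a protein tyrosine phosphatase. P024 (chr1:119913107-119913557) holds the start of Tmem177, a protein of the mitochondrial inner membrane, and touches the long noncoding RNA gene Gm28209. P025 (chr1:119997154-119997604) holds the starts of Cfap221, a protein of motile cilia, and of the long noncoding RNA Gm33817, which runs the opposite way. Exon and intron limits within these genes were not used here.

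The 250 bases before the RefSeq start lie inside the tested fragment for 5 of these promoters and show what they are made of. These sequences cover P019 and P025, the highest and the lowest of the 9 by the mean over strands measured (P019 plus only). They are credited to RefSeq (GRCm38.p6) and written 5′ to 3′ along the gene, in lower case with CCAAT boxes (CCAAT or ATTGG) and GC boxes (GGGCGG or CCGCCC) in capitals.
Nifk, P007, chr1:118321593-118321842, plus strand: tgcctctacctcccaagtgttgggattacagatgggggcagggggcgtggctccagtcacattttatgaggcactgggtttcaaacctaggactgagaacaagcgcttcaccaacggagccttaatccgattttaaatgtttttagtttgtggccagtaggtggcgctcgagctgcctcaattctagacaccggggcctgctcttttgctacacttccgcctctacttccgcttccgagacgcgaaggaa
Ralb, P018, chr1:119504783-119505032, minus strand: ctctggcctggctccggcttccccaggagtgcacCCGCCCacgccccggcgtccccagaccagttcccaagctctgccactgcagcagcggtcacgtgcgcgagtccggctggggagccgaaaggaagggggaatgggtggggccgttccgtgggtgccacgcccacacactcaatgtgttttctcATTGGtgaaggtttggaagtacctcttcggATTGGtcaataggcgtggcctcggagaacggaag
Tmem185b, P019, chr1:119525904-119526153, plus strand: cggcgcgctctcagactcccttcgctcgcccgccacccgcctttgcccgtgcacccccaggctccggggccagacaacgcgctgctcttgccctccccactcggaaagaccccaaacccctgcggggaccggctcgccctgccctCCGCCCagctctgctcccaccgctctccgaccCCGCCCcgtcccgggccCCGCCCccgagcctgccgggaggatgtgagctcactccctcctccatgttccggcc
Tmem177, P024, chr1:119913184-119913433, minus strand: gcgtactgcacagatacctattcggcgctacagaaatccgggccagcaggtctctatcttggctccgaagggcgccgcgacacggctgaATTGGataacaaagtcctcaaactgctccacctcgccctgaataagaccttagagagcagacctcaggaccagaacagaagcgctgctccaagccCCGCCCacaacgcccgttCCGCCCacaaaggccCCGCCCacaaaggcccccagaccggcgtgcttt
Cfap221, P025, chr1:119997233-119997482, minus strand: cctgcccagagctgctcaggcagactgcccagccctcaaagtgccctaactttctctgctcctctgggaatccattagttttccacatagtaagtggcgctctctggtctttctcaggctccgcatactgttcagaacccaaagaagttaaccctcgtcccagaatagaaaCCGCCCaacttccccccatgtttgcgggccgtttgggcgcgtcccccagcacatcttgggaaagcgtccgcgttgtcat

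GC boxes stood in 4 of the 5 sequences, with 3 copies each at Tmem185b and Tmem177 and 1 each at Ralb and Cfap221. CCAAT boxes stood in 2 of the 5, with 2 copies at Ralb and 1 at Tmem177. The Nifk sequence, which belongs to the fragment with the highest activity on a single strand, held neither. Over 32851 RefSeq mouse promoters of the same length, 32.7% held a GC box and 33.8% a CCAAT box, on either strand. Of the weak fragments of the locus, 6 could be matched in the same way, and 2 of these held a GC box and none a CCAAT box. The same windows were searched on both strands for the TATA box (TATAAA), the ETS motif (CCGGAAG) and the cyclic AMP response element (TGACGTCA), which stood in 12.4%, 6.91% and 1.55% of all promoters. None of the 5 active sequences held any of these 3 motifs, and 1 weak sequence, at Tfcp2l1, held a TATA box. GC content ran from 52.8% (Nifk) to 74.4% (Tmem185b) in the active sequences and from 47.6% to 68.8% in the weak ones, against a median of 52.4% over all promoters. The ratio of observed to expected CpG was 0.599 (Cfap221) to 0.838 (Tmem177) in the active and 0 to 0.780 in the weak ones, against a median of 0.374. Both classes thus overlap in base composition.

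Measured alone, P007 at Nifk was the most active of the 9 on a single strand, at 14.8, 17.05 and 17.6 in replicates 1, 2 and 3 on the plus strand. On the minus strand the same fragment gave 0.613, 0.680 and 0.716. The plus strand was thus 24.6-fold higher in geometric mean, with no overlap between the replicates. P019 at Tmem185b gave 7.94, 8.71 and 9.42 on the plus strand and had no value alone on the minus strand. P022 at Ptpn4 gave 6.74, 7.28 and 7.93 on the plus strand against 0.524, 0.522 and 0.605 on the minus strand. P018 at Ralb gave 5.68, 6.57 and 7.43 on the plus strand and 0.860, 1.01 and 1.30 on the minus strand. These promoters stood well above the empty construct on either strand measured.

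P010 at Clasp1 was the 1 fragment measured on both strands that was about as active on each. It gave 4.64, 4.86 and 4.85 on the plus strand and 4.84, 5.21 and 5.42 on the minus strand, a plus to minus ratio of 0.928. Its neighbour P009, measured on the minus strand only, gave 1.76, 1.63 and 1.90. P024 at Tmem177 gave 2.36, 2.57 and 3.26 on the plus strand and 0.167, 0.180 and 0.215 on the minus strand. P025 at Cfap221 gave 2.36, 2.45 and 2.67 against 0.179, 0.193 and 0.204, and P021 at Epb41l5 gave 1.67, 2.44 and 3.12 against 0.290, 0.265 and 0.264. By the mean over strands that the rule used, P019 (3.12), P010 (2.31) and P007 (1.73) had the highest log2 values of the 9. The value of P019 was its plus strand alone, so its rank above P010 and P007 does not compare like with like. P021, P024 and P025 were the lowest. The last 3 were low on the minus strand alone, with geometric means of 0.187 to 0.273 against 0.0582 for the empty construct. They were also the members nearest to the line, with means over strands of -0.53 (P025), -0.49 (P024) and -0.33 (P021) on the log2 scale. The fragment just outside was P032 at -1.53, measured on 1 strand with 0.197, 0.583 and 0.358.

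The strand given in the table is that of the fragment, and what it is counted from is not stated in the sources used here. The higher strand was the plus strand for genes that run along the plus strand of the genome (Nifk, Tmem185b) and along its minus strand (Ralb, Tmem177, Cfap221). In the text below, plus and minus are the table's labels and are not orientations on the chromosome.

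Turning the promoter round changed the level of nearly all of these fragments when a cCRE stood in front of them. Basal activity here is the median over all constructs that carry a cCRE before the same promoter on the same strand, taken in each replicate. This measure is not the one that chose the fragments. Of the 8 active fragments with at least 10 constructs on each strand, 7 had a higher basal activity on the plus strand, and P010 at Clasp1 was not called (limma on 3 replicate values against 3, Benjamini-Hochberg adjustment). Over all 20 fragments tested at the locus, 45.0% were called, each of them higher on the plus strand. The remaining 12 fragments include 2 called, P011 and P013, at 0.163 and 0.140 on the plus strand. Basal activities of the 12 lay between 0.0294 and 0.163, against 0.0582 for the empty construct.

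P007 at Nifk had basal activities of 13.5, 15.2 and 14.6 on the plus strand and 0.512, 0.654 and 0.674 on the minus strand. This difference of 4.56 on the log2 scale (SE 0.16, limma adjusted p = 2.00e-06), or 23.7-fold, was the widest of the 8. P019 at Tmem185b had 7.99, 9.03 and 9.20 against 0.431, 0.515 and 0.671, which is 16.5-fold (adjusted p = 7.09e-06). Here the minus strand, for which no value alone was given, lay near 0.53 on the linear scale. P022 at Ptpn4 had 6.24, 6.62 and 6.99 against 0.580, 0.576 and 0.622, 11.2-fold (adjusted p = 2.00e-06). P024 at Tmem177 had 2.32, 2.89 and 3.17 against 0.214, 0.256 and 0.296, 10.9-fold (adjusted p = 1.24e-05). P025 at Cfap221, which also holds the start of a noncoding RNA that runs the opposite way, had 2.01, 2.00 and 2.23 against 0.253, 0.250 and 0.296, 7.82-fold (adjusted p = 6.34e-06). A promoter with annotated starts in both directions was thus still far higher on one strand.

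P018 at Ralb had 5.38, 6.79 and 6.52 on the plus strand against 0.823, 1.06 and 1.22 on the minus strand, 6.06-fold (limma adjusted p = 4.88e-05). P021 at Epb41l5 had 1.66, 1.61 and 2.07 against 0.410, 0.345 and 0.376, 4.70-fold (adjusted p = 3.66e-05). In all 7 fragments the lowest plus replicate lay above the highest minus replicate. P010 at Clasp1 had 3.36, 3.50 and 3.55 on the plus strand and 3.83, 4.04 and 3.96 on the minus strand, a log2 difference of -0.18 (SE 0.11, adjusted p = 0.285). Every minus replicate was above every plus one, and with the replicate number as a block this fragment was called lower on the plus strand (adjusted p = 0.0435). With that block, 15 of the 20 fragments of the locus were called in place of 9.

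Pairs of a cCRE with an active promoter lay on both sides of the basal activity, which a median of these same constructs sets in advance. The test sets a pair against the other cCRE constructs of its promoter strand and not against the promoter alone. At P010 plus, for example, the basal activity was 3.47 and the fragment alone gave 4.78. Of 2090 constructs with all 3 replicates above 0, 768 (36.7%) differed from their promoter's basal activity, 465 of them higher and 303 lower (limma adjusted p under 0.05, adjusted over all 5065 pairs of the locus). Over all of those pairs 34.6% were called, 25.8% higher and 8.79% lower. The weak promoters contributed 842 of the higher and 142 of the lower calls over the locus. With the mean construct as the baseline, 451 pairs of active promoters were called higher and 388 lower, where 40.3% of all pairs were called, 23.2% higher and 17.1% lower, so the split of calls between the directions depends on the baseline. The median SD between replicates of a construct was 0.22 on the log2 scale for the active and 0.69 for the weak promoters, and its part in the calls was not tested. A change of at least 1 on the log2 scale was seen in 313 of the higher and 183 of the lower pairs. The median difference over the 2090 pairs was -0.02, as a baseline taken from the same constructs sets it near 0. All pairs of a promoter strand share that baseline. Without replicate 2 the calls fell to 233 (184 higher, 49 lower) and without replicate 3 to 320 (243 and 77), against 648 without replicate 1.

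The size of the answer went with the strand on which the promoter stood. On the plus strand, 209 of 806 pairs were called (138 higher, 71 lower), and on the minus strand 559 of 1284 (327 higher, 232 lower). The boost index of a pair is the log2 of its activity over the basal activity, averaged over the 3 replicates. Its SD over cCREs, taken in each replicate and then averaged, tells how widely the log2 activity varied between partners. It includes noise between replicates, with a median SD per construct of 0.15 on the plus and 0.28 on the minus strand. The part of that noise was not tested. The SD over cCREs was 0.39 for P007 on the plus strand, over 54 constructs, and 0.41 for P022 on the plus strand, over 249 constructs. These are the 2 narrowest of the 16 promoter strands, and only 5 and 41 of their pairs were called. At the other end stood P021, P025 and P024 on the minus strand, with SDs of 1.78 ± 0.10, 1.77 ± 0.17 and 1.70 ± 0.03 (SD between replicates, n = 3) and with 103 of 171, 80 of 148 and 107 of 193 pairs called. The strands with the lowest basal activity were thus those with the widest spread.

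The same cCREs in the same orientation could be compared on both strands of a fragment, which removes differences in the choice of partners. At P007, the SD over 49 matched cCREs was 0.38 ± 0.03 on the plus strand and 0.96 ± 0.04 on the minus strand (SD between replicates, n = 3). At P022 it was 0.42 ± 0.02 against 1.02 ± 0.04 over 195 matched cCREs. At P019 it was 0.47 ± 0.03 against 1.71 ± 0.18 over 14. The minus strand also had the wider spread at P018 (0.60 and 1.15), P021 (0.96 and 1.66), P024 (0.82 and 1.60) and P025 (0.77 and 1.71), and at each of these 7 fragments the narrowest minus replicate exceeded the widest plus replicate. P010 went the other way, with 0.68 ± 0.03 on the plus strand and 0.53 ± 0.04 on the minus strand over 126 matched cCREs, and at this fragment the plus strand was the one with the lower basal activity. On the linear scale the plus strand had the wider spread at all 8 fragments, P010 included (1.97 and 1.65). The SD of the activity difference at P007 was 4.51 on the plus strand and 0.41 on the minus strand, and at P022 2.37 and 1.09.

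Taken as a class, the active promoters had a narrower spread than the weak ones of the locus. The median SD over promoter strands was 0.96, 0.89 and 0.79 in replicates 1, 2 and 3 for 16 active strands, and 2.47, 1.98 and 2.10 for 25 weak ones. The groups did not overlap, and the exact permutation test of 3 against 3 values gave its smallest possible p of 0.1. Weak promoters had basal activities from 0.0294 to 0.163 on the strands compared above, against 0.0582 for the empty construct. Of their constructs, 15.1% had a replicate at 0, against 0.191% for the active class. Within the active class the SD was 0.63 ± 0.04 on the plus strand and 1.16 ± 0.09 on the minus strand (SD between replicates, n = 3).

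By fold over basal, the 5 highest pairs joined a cCRE to the minus strand of a promoter. The highest activity stood on a plus strand, at 33.4 for E064 minus with P007. The plus strand of P018 reached 23.9, with E017 minus. The highest fold was that of E015, on its minus strand, with P021 at Epb41l5, which gave 15.6, 13.5 and 11.4 against a basal activity of 0.410, 0.345 and 0.376. Its boost index was 5.15 ± 0.20 (SD, n = 3), a 35.5-fold rise (limma adjusted p = 7.54e-05). E015 on that strand gave 0.752 alone, and P021 alone 0.273, so the pair far exceeded both. The same oriented cCRE reached 2.22 with P024 minus, 0.862 with P022 minus, 3.20 with P025 plus and 7.74 with P022 plus, which are 8.76, 1.45, 1.54 and 1.17 times their basal activities, the last not called. The value with P021 therefore stands apart from the other 4 partners, and each is a single construct whose number of barcodes is unknown.

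E060, an element within the Tfcp2l1 gene (chr1:118647958-118648408), gave 3 of the 5 highest pairs over all active promoters. With P025 at Cfap221 on the minus strand, E060 minus gave 9.20, 9.41 and 8.12 against 0.253, 0.250 and 0.296, a 33.5-fold rise (limma adjusted p = 7.12e-05). With P024 at Tmem177 on the minus strand, E060 plus gave 6.34, 6.62 and 5.93 against 0.214, 0.256 and 0.296, a 24.8-fold rise (adjusted p = 7.61e-05). With P021 minus, E060 plus was 20.4-fold above basal, with P022 minus 19.8-fold and with P019 minus 16.5-fold, and it was the highest called partner of P022, P019 and P024. It was also the highest called partner of P007 at Nifk, where it gave 3.38, 4.11 and 3.65 on the minus strand, 6.08-fold above 0.609. The E060 element is itself active, at 15.5 on the plus strand and 7.34 on the minus strand alone.

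The other extremes came from elements outside Tfcp2l1. The remaining one of the 5 highest pairs joined E166, between genes and nearest to Inhbb, to P025 minus and gave 5.51, 4.97 and 5.63, a 20.2-fold rise (limma adjusted p = 7.54e-05). E017, at the edge of Tsn, gave the highest called pair of P018 at Ralb, with 13.03, 13.5 and 14.8 on the minus strand against 0.823, 1.06 and 1.22, which is 13.5-fold (adjusted p = 1.15e-04). The highest called pair of P010 at Clasp1 was with E294 and was smaller, at 13.7, 13.2 and 11.1 against 3.36, 3.50 and 3.55, or 3.64-fold (adjusted p = 4.62e-04). P009 at Clasp1 had a single construct, with E066, at 3.39, 3.76 and 2.87, which is its own baseline and has no test.

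A few plus strands had so few calls that these can be named, chosen after their values were seen. P007 at Nifk, whose plus strand was the most active, rose with E064 minus to 33.6, 36.3 and 30.6, and with E249 plus to 31.8, 32.8 and 33.6, from a basal activity of 14.4 (limma adjusted p = 0.00225 and 0.00189). Both elements were low alone, at 0.0610 and 0.223. Over the active fragments measured with both strands of the element, E064 minus averaged 0.731 times basal (7 fragments) and E249 plus 1.66 times (8 fragments). Each rise of P007 is a single construct whose number of barcodes is unknown, and that of E064 goes against its mean. P007 plus was lower with E234, E046 and E075, each on the minus strand, at 8.17, 9.44 and 10.1. P019 at Tmem185b rose with E060, E188 and E281 on their plus strands, to 22.4, 13.1 and 13.04 from 8.73, and had no lower call. P018 at Ralb was lower with E095 (3.85) and E209 (4.11) than its 6.20, and P021 at Epb41l5 was lower with E130, E013 and E266, at 0.837 to 0.985 against 1.77. The 1 lower pair of P024 at Tmem177 was with E095, at 1.53 against 2.77.

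The 5 lowest pairs had a promoter on its minus strand and geometric means of 0.0172 to 0.0292, below the 0.0582 of the empty construct. E073 minus with P021 at Epb41l5 gave 0.0307, 0.00423 and 0.0390, 21.9 times below basal (limma adjusted p = 0.0113). E267 minus with P007 at Nifk gave 0.0138, 0.0173 and 0.104, 20.8 times below basal (adjusted p = 0.00881). The replicates of these 2 pairs were wide apart, with SDs of 1.66 and 1.46 on the log2 scale. The first call was lost without replicate 3 (limma adjusted p = 0.0687) and the second without replicate 2 (adjusted p = 0.0809). E286 minus with P025 at Cfap221 gave 0.0248, 0.0150 and 0.0214, 13.3 times below basal (adjusted p = 1.79e-04). E191 minus and E238 minus with P024 at Tmem177 gave 0.0196 and 0.0211 in geometric mean, with boost indices of -3.69 and -3.59 (limma adjusted p = 2.71e-04 and 0.00177). The call of E238 was lost without replicate 3 (adjusted p = 0.0530).

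For the other members the lowest called partner took off less. E073 minus was the lowest with P018 at Ralb and with P019 at Tmem185b, at 5.31 and 5.69 times below basal (limma adjusted p = 0.00945 and 0.00161). E227 minus was the lowest with P022 at Ptpn4, at 0.142, 0.135 and 0.265 against 0.592, and E013 plus with P010 at Clasp1, at 1.16, 1.15 and 0.921 against 3.47. Without replicate 2 the calls of E073 with P018 and of E227 with P022 were lost (adjusted p = 0.0829 and 0.0783). At P010 even the lowest pair was thus only 3.25 times below basal, and it stayed far above the empty construct.

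Averaged over the active promoters, a few elements stood well above the rest, though not with every promoter. Of 134 cCREs measured with at least 4 active fragments, 17 had a mean boost index above 1 and 6 below -1, with a median of -0.06. The 5 highest were E017 at 2.57 ± 0.12 (SD between replicates, n = 3), E060 at 2.50 ± 0.19, E301 at 2.37 ± 0.18, E015 at 2.32 ± 0.07 and E166 at 1.98 ± 0.10. Of these, E017, E060, E301 and E166 had been singled out in earlier results of these data. The mean of E015 rests on P021 and P024, at 5.15 and 3.13 on their minus strands, since with P022 and P025 its boost indices were 0.23 to 0.62. E017 was called higher in 13 of 13 constructs with active promoters and lower in none, E060 in 26 of 27, E166 in 19 of 21 and E301 in 6 of 7. Over all 2090 pairs of active promoters, 465 were called higher. The elements were picked for high means over these same constructs, so their counts are a description and no further support. The 1 construct of E060 and the 2 of E166 that were not called had P007 as the promoter.

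E060 shows how one element behaves across the promoters. E060 on its plus strand was measured with 12 active promoter strands, and the activity lay between 3.70 (P007 minus) and 22.4 (P019 plus). The fold over basal ran from 2.19-fold at P010 minus to 24.8-fold at P024 minus, whereas the gain on the linear scale ran from 3.10 to 14.5, with a median of 8.93. In 3 of the 12 constructs the pair exceeded the 15.5 of E060 alone, namely with P025, P022 and P019 on their plus strands, at 16.5, 19.1 and 22.4. E017 on its minus strand, which gave 31.2 alone, reached 1.63 to 23.9 with 13 promoter strands and exceeded its own level with none. E060 minus exceeded its 7.34 with 7 of 15 promoter strands, E166 minus its 3.79 with 3 of 6, and E301 plus its 4.89 with 1 of 6. E166 plus and both strands of E294 exceeded their own lower levels alone (3.15, 2.31 and 2.36) with 13 of 15, 11 of 13 and 13 of 13 promoter strands.

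Among these partners, only the plus strand of P007 had pairs below basal. With E060 minus it gave 14.5, 8.31 and 10.5, with E166 plus 12.6, 11.6 and 12.7, and with E294 minus 10.4, 10.2 and 11.8, against a basal 13.5, 15.2 and 14.6. None of these 3 pairs passed the test (limma adjusted p = 0.250, 0.284 and 0.0926), and all 3 geometric means lay below basal. With E294 plus, P007 plus stood nearer to basal, at 13.5, 13.9 and 13.8 or 0.953 times basal (limma adjusted p = 0.743). E294 minus with P018 plus, at 1.40-fold, was not called either (limma adjusted p = 0.0776). E017, E301 and the plus strand of E060 were not measured with P007 plus. On its minus strand the same fragment rose with E060 plus, E060 minus, E017 minus and E294 plus, by 6.08-fold, 2.39-fold, 2.69-fold and 2.27-fold, while E166 plus and E301 plus, at 1.43-fold each, were not called.

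At the low end stood E286 at -2.18 ± 0.57 (SD between replicates, n = 3), E073 at -1.81 ± 0.27, E099 at -1.76 ± 0.30, E291 at -1.07 ± 0.15 and E013 at -1.05 ± 0.13. E286 and E291 lie between genes, nearest to C1ql2 and Marco, E073 beyond Tfcp2l1, E099 within Gli2, which encodes a transcription factor of Hedgehog signalling, and E013 near Tsn. They were called lower in 4 of 5, 7 of 9, 4 of 7, 7 of 16 and 12 of 16 constructs, and higher in none. Over all 2090 pairs of active promoters, 303 were called lower. These 5 elements were picked for low means over the same constructs, so their counts are a description only. Alone, they gave 0.0276 to 0.125 on the strands measured, except for E013 on its minus strand at 0.482, above the line of -1.5 used for the promoters. Of the list of elements already known as lowest over the locus, E286 and E099 recur here, while E080, E145 and E101 had means of -1.16, -0.74 and -0.56 over 2 or 3 active fragments. Of their 10 constructs, 4 were called lower.

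How active a cCRE was alone went with what it did. Of 273 oriented cCREs with a value alone, 58 were at or above the line used for the promoters (-1.5 on the log2 scale), and the median was 0.106. These 58 entered 460 pairs with active promoters, of which 284 were called higher and 12 lower, whereas the 215 below the line entered 1625 pairs, of which 181 were called higher and 291 lower. The more active elements thus gave 61.1% of the higher calls and 3.96% of the lower calls. On the plus strand of the promoters they were called higher in 52.3% of pairs with a median boost index of 0.56, and on the minus strand in 67.6% with 1.26. Per promoter strand, Pearson's r of the boost index with the log2 activity of the cCRE alone ran from -0.16 to 0.90 over 16 strands of 15 to 248 cCREs, with a median of 0.73. The lowest 2 values were those of P007, at -0.16 on the plus strand and 0.33 on the minus strand. These correlations are across cCREs that recur between promoters, within the same 3 libraries.

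The boost indices of shared cCREs went together between the promoters, apart from P007. For 105 pairs of promoter strands that shared at least 20 oriented cCREs, Pearson's r of the boost index had a median of 0.71 and ran from -0.27 to 0.91. The 27 pairs with P007 had a median of 0.26 and ran from -0.27 to 0.53. The median was 0.64 to 0.79 for each of the other 7 fragments, with their own pairs with P007 included. With those other fragments, P007 plus gave -0.27 to 0.10 and P007 minus 0.36 to 0.53. These correlations share cCREs and libraries and are given as a description.

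Activities were also set against the fragments alone, which repeats values that chose the members and is therefore not tested. The log2 ratio of a construct to the sum of its fragments alone had a median below 0 at every one of the 15 promoter strands that could be computed, from -0.64 ± 0.11 (SD between replicates, n = 3) at P007 minus to -0.02 ± 0.05 at P019 plus. With the more active cCREs the medians spread more widely. They reached 0.47 ± 0.07 at P024 plus and 0.30 ± 0.15 at P021 minus, where pairs exceeded the sum, and -1.19 ± 0.21 at P007 minus, where they fell short of it. At P024 plus, 11 of 12 constructs with such a cCRE exceeded both of their fragments alone, and at P007 plus 2 of 12 did.

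Genomic distance between the cCRE and the promoter went with little. Of 89 pairs under 50 kb apart, 20.2% were called higher and 15.7% lower. Of 635 pairs over 1000 kb apart, 22.4% were called higher and 14.5% lower. Pairs 50 to 200 kb apart had the highest share of higher calls, 28.9% of 194. Pearson's r of the boost index with the log10 distance lay between -0.18 and 0.21 over the 16 promoter strands.

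The order of the fragments made a difference for each of the 6 active promoters that could be tested. The same cCRE and promoter, in the same strands, were measured in both orders for 42 to 372 pairs of 6 active fragments. All 6 gave higher activity with the promoter in the second place, next to the reporter, by a median of 1.74 on the log2 scale, or 3.33-fold. Over the 15 fragments of the locus tested, 60.0% were called. The 40.0% that were higher in this order are the 6 active ones, and the 3 lower fragments (P014, P015 and P020) were weak promoters. With the replicate number as a block 14 of the 15 were called, the 6 active ones higher as before, and of the 9 others 7 lower and 1, P012, higher (0.17, limma adjusted p = 0.0102). P018 at Ralb had geometric mean activities of 2.46, 3.03 and 3.09 with the promoter second and 0.515, 0.564 and 0.637 with it first, a 4.99-fold difference (limma adjusted p = 5.26e-06). P022 at Ptpn4, over 372 pairs, had 2.26, 2.37 and 2.57 against 0.582, 0.650 and 0.685, or 3.76-fold. The difference was 3.49-fold at P024, 3.18-fold at P010, 2.77-fold at P021 and 2.57-fold at P007, with adjusted p from 8.14e-06 to 5.69e-05, and no replicate overlapped at any of the 6. In P010, whose 2 strands were near equal, the place of the promoter still made a difference.

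The strand of the cCRE also made a difference on active promoters for a number of elements. Over the same promoter strands, 67 cCREs could be compared on both of their own strands, and 31 differed (46.3%), 21 (31.3%) higher and 10 (14.9%) lower on the plus strand (limma, adjusted p under 0.05). The widest difference was that of E227, whose constructs averaged 0.944, 0.812 and 0.875 of basal on the plus strand and 0.227, 0.311 and 0.291 on the minus strand, 3.20-fold apart (adjusted p = 9.87e-06). Constructs with this element thus lay far below basal on one strand of the cCRE and near basal on the other. E217 was 2.12-fold and E267 1.93-fold apart in the same direction. In the other direction, E289 averaged 1.71, 1.68 and 1.99 on the plus strand and 3.16, 3.25 and 3.29 on the minus strand, and E143 and E215 were 0.556 and 0.581 times as high on the plus as on the minus strand. The call of E215 was lost without replicate 3 (adjusted p = 0.128). E060 within Tfcp2l1 was 1.84-fold higher on the plus strand (adjusted p = 5.87e-04), at 10.5, 9.83 and 7.76 times basal against 5.63, 5.24 and 4.33.

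Active and weak promoters were compared cCRE by cCRE to ask whether an element does the same to both. Of 146 cCREs measured with at least 3 fragments of each class, 44 (30.1%) differed in their mean boost index, 10 (6.85%) higher over the active and 34 (23.3%) lower (limma adjusted p under 0.05). Each of the 3 values per class is a mean over fragments, so the p-value does not measure the spread between promoters of a class. The elements called lower include the strongest ones. E017 averaged 2.57 ± 0.12 over 8 active and 5.92 ± 0.50 over 11 weak fragments (SD between replicates, n = 3), a difference of -3.35 (SE 0.25, adjusted p = 1.33e-04). E060 averaged 2.50 over active and 5.75 over weak promoters, E188 1.28 and 3.89, E166 1.98 and 4.47, and E071 1.97 and 4.36. Among the 5 lowest elements, E073 and E013 were called lower over the active promoters, at -1.81 against -0.63 and -1.05 against -0.27. E013 was not called with the mean construct as the baseline (limma adjusted p = 0.253) or without replicate 3 (adjusted p = 0.0762).

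The 5 elements with the widest differences in favour of the active promoters all averaged below basal on the weak ones. E019, 2125 bp from Nifk, averaged 0.32 ± 0.07 over 3 active and -1.34 ± 0.14 over 4 weak fragments, a difference of 1.66 (SE 0.15, limma adjusted p = 1.58e-04). E108 (0.66 and -0.47), E189 (0.08 and -1.04), E101 (-0.56 and -1.65) and E290 (-0.08 and -1.15) followed. The last 3 were not called without replicate 1 (adjusted p = 0.105, 0.159 and 0.0728) or without replicate 3 (adjusted p = 0.0760, 0.117 and 0.101), and E290 not without replicate 2 (adjusted p = 0.0941). This split turned with the baseline, since the mean construct in place of the median gave 45 higher and 21 lower, and the median difference over all cCREs moved from -0.13 to 0.38. With the mean construct the 10 higher elements kept their sign, as did 33 of the 34 lower ones, 21 of them called. Leaving out constructs under an activity of 0.05, which constructs of weak promoters pass only when they are high, gave 2 higher and 102 lower, with a median of -1.06. Of the 10 higher elements 5 could still be compared, and 2 of these kept their sign. The low basal activity of the weak promoters and the class of the promoter cannot be told apart here.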

How the data were processed

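Activities are linear ratios of cDNA to plasmid barcodes per construct and biological replicate, made by the authors and used as deposited, and the scale that sets a ratio of 1 is not stated in the sources used here. Barcode and read numbers per construct were not analysed here, which leaves the depth of a construct unknown. The submitters' processing notes name Bowtie2 and mm10. The deposited log2 boost index of the authors was recomputed for 5065 of 5065 finite entries within 0.001. The boost index here averages 3 replicate values instead and differed from it by a median of 0.05.

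Tests used limma 3.58.1 (R 4.3.3) on log2 values, 3 against 3, two-sided, with moderated variances and Benjamini-Hochberg adjustment over the whole Tfcp2l1 table at 0.05. Constructs with a 0 in any replicate were left out of the tests (4 of 2094). Replicates share 1 plasmid pool, so p-values measure the spread between transfections and not between plasmids, promoters or cCREs. A construct and its baseline come from the same cDNA sample, so the replicate numbers pair the values. Their deviations from the means correlated at 0.29, 0.27 and 0.16 in the 3 replicates. The main tests did not use this pairing, and the replicate block, which does, was run as an alternative. On simulated data, 60.5% of 200 changed pairs of 5065 were recovered with 6.20% false calls at a log2 change of 2. For the difference between classes, 100% of 30 changed cCREs of 146 were recovered with 9.09% false calls. The simulation pooled active and weak promoters, gave each pair its own baseline and did not pair the replicates. It therefore does not give the rates for the pairs of active promoters. The members and lists were chosen with earlier results of these data known. Named pairs are the highest and lowest called pair of each promoter and the 5 highest and lowest over all. Named cCREs are the 5 highest and lowest over at least 4 active promoters, the 5 widest differences in each direction between classes, and E017, E060, E301, E166, E286, E099, E080, E145 and E101. The cCREs named for their own strand, E015 and E294 with further promoters, and the weak promoters named were chosen after their values were seen.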

Additional observations from a re-analysis of the deposited data

Results flagged for a closer look

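Several cCREs had different mean boost indices over the active and the weak promoters measured, with the difference itself tested (limma, adjusted p under 0.05, 3 replicate values against 3). Each value is a mean over fragments, so the p-value does not measure the spread between the promoters of a class. E019 rests on 3 active and 4 weak fragments, and E101 on 3 and 3. The mean boost index over the active promoters minus that over the weak ones was 1.66 for E019, 1.13 for E108, 1.12 for E189, 1.09 for E101 and 1.06 for E290. In the other direction it was -3.35 for E017, -3.24 for E060, -2.61 for E188, -2.50 for E166 and -2.38 for E071. The 10 were chosen as the widest differences in each direction, and their sizes move with the baseline. The classes were set by the promoter alone, and the boost index divides by the basal activity, which is low for weak promoters. The basal activity and the class of the promoter thus cannot be told apart here. The calls of E189, E101 and E290 were lost without replicate 1 and without replicate 3.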

How the results depend on the processing

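The 7 strand calls, the 6 order calls and the direction of the difference in spread were the same in all alternatives run for them, except that the strand of P010 was also called with the replicate block and that P019 had no value for the fragment alone. Calls among pairs with active promoters were 768, and 233 to 648 when 1 replicate was left out. They came to 496 with a minimum difference of 1, and to 719 with the replicate block. The calls between active and weak promoters were 44, and 26 to 38 when 1 replicate was left out. They came to 104 (2 higher, 102 lower) when constructs under an activity of 0.05 were left out, and to 45 with the replicate block. The cause of these changes was not tested. The difference in spread of -1.31 became -1.03 when constructs at 0 were kept with a pseudocount of 0.01, and lay between -1.41 and -1.20 when 1 replicate was left out. The replicate block moved the strand calls over all fragments of the locus from 9 to 15 and the order calls from 9 to 14. It also called E286 lower over the active than the weak promoters (-0.71, limma adjusted p = 0.0258), and changed no other call among the named results. Calls between the strands of a cCRE were 31, and 24 to 37 under the alternatives. For single named pairs, promoters and cCREs, 518 alternative values kept direction and call, 18 lost the call and 6 gained one. The sign turned in 6, none of them called in either fit: the difference between classes of E291 (-0.34) became 0.0135 with the pseudocount, 0.17 with the mean construct, 0.26 with the plus strand of the active promoters and 0.11 with the promoter alone, where E015 (-0.76) and E099 (-0.57) became 0.0376 and 0.0351. E013 lost its call between the classes with the mean construct as the baseline, and E101 with the pseudocount (adjusted p = 0.253 and 0.268). E145 gained one with the mean construct (1.06). The promoter alone as the baseline repeats the values that chose the classes and supports nothing here. With an activity of at least 0.05, E015 and E291 gained one (-0.76 and -0.85). The depth of each construct is unknown, so how far it limits these values was not tested.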
